A study of Mus musculus with 12 samples.

Results

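mmu-miR-689 and mmu-miR-690 are entries of the array's mouse miRNA design whose signals have been suspected of coming from fragments of more abundant RNAs. They were picked by name, because in earlier results of these arrays their signals moved in opposite directions between 12 and 24 h of tunicamycin. They are 2 of the 650 miRNAs with probes, and both were among the 175 that could be tested. Each has 2 probes, so 4 of the array's 1857 miRNA probes are described here. The 12 single-colour arrays measured total RNA of C57BL/6 mouse embryonic fibroblasts, 2 arrays from independent experiments in each of 6 groups. ATF6aKO cells, which lack the ATF6a gene, were untreated or given tunicamycin at 2 ug/mL for 12 or 24 h, and ATF6aWT cells had the same 3 conditions. All groups shared strain, cell type and medium. The sources used here do not say how many embryos or lines the cells came from, so the p-values measure the spread between these arrays.

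ATF6a sits in the membrane of the endoplasmic reticulum and, when unfolded proteins accumulate, is cleaved to release a transcription factor. Tunicamycin blocks N-linked glycosylation and causes such an accumulation. A miRNA is cut from a hairpin precursor and guides Argonaute proteins to mRNAs through its seed, the bases near its 5′ end. Short pieces of ribosomal RNA, transfer RNA or transcripts of repeated elements can carry similar letters and bind a miRNA probe. In mice, miR-690 has been studied as a cargo of macrophage exosomes that acts on insulin sensitivity. These arrays measure no other RNA from which a fragment could be cut, so whether either signal came from fragments was not tested.

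Of the pair, miR-690 had an entry in the RefSeq tables, and its mature sequence is shown because both of its probes were designed to capture it. Mir690 lies on chromosome 16, minus strand, with its hairpin at chr16:28599935-28600043 and its mature arm at chr16:28599940-28599961 (RefSeq, GRCm38.p6). The seed, bases 2 to 8 of the mature miRNA, is in capitals.
miR-690: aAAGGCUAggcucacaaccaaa
No other of the 1679 mature mouse names in the table had the same seed. The hairpin of 109 bases is shown next, with the mature arm, bases 83 to 104, in capitals.
Mir690 hairpin: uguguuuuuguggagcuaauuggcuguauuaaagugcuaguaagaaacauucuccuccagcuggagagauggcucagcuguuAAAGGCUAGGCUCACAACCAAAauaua
Beside the mature arm lies a stretch of 19 bases, hairpin bases 60 to 78 at chr16:28599966-28599984, that recurs in other loci.
Repeated stretch: GCUGGAGAGAUGGCUCAGC
Its letters resemble the start of rodent B2 repeats, short interspersed elements transcribed by RNA polymerase III. The 15-base word CTGGAGAGATGGCTC from that stretch stood, on either strand, in 60 of 32851 RefSeq promoter windows (0.183%). Over the 1005 mouse hairpins in the table, the most common 15-base word of a hairpin had a median of 1 promoter, and 11 hairpins (1.09%) reached at least the 60 of Mir690. The word also occurred in 5 other hairpins, those of Mir3473a, Mir3473b, Mir3473e, Mir3473f and Mir6413. Within the mature arm, the 12-base word GGCTCACAACCA stood in 100 promoter windows (0.304%), and 17 of the 1679 mature names (1.01%) had a word at least as common, against a median of 6 promoters. The whole mature sequence stood in 1 window. These matches describe letters shared with other loci and say nothing about which RNA was hybridised.

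The arrays differed in quality along lines that touch both miRNAs. The untreated arrays lay on slide 1, scanned in runs 1 and 2, and the treated ones on slide 2, with replicate 1 scanned in run 3 and replicate 2 in run 4. Treatment therefore cannot be told apart from slide, nor genotype from row position on the slide, since knockout and wild type each kept to 1 row. Negative control spots had an SD of 4.56 to 12.1 intensity units in run 4, against 2.22 to 3.15 in the other runs. Of the tested miRNAs, 73 to 101 per array were well above background in run 4, against 127 to 166 elsewhere. The wild type 12 h replicate 1 array stood apart in its spots: over the 87 probes well above background everywhere, the median coefficient of variation between spots was 42.7%, against 5.34% to 11.3% on the other arrays. Differences of the pair are also given without that array or without run 4 where this turned a sign, ended a call or moved the value by over 1.5 times. Without run 4 each treated group is 1 array, so those values are given with no test. Of 7 fibroblast or mesenchymal miRNAs, 6 were tested and 5 were well above background on all 12 arrays. The 5 epithelial, 3 blood and 2 neural markers were not well above background on any array, and 1 pluripotency and 1 muscle marker were so on at least 1. ATF6a mRNA is not measured on these arrays, so the genotypes rest on the labels.

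miR-689 was dim in untreated cells of both genotypes and brighter after tunicamycin in both. Its level rests on probe A_54_P1980, which was well above background on 8 of 12 arrays. Before any scaling between arrays, that probe averaged 17.5 and 14.7 intensity units in untreated knockout cells, 53.3 and 44.1 at 12 h and 109.5 and 66.7 at 24 h. The wild type averages were 10.7 and 11.04 untreated, 36.1 and 20.3 at 12 h and 54.8 and 26.5 at 24 h. Every treated array thus exceeded both untreated arrays of its genotype without any scaling, whereas the wild type 12 h and 24 h arrays overlapped. The probe was not well above background on the wild type untreated arrays, on wild type 12 h replicate 2 or on knockout 12 h replicate 2.

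The other miR-689 probe, A_54_P1979, stayed near the negative controls. Its median over the 12 arrays was 0.62 intensity units, with a lowest value of -12.9 on knockout 12 h replicate 2. Only on knockout 24 h replicate 1 was it well above background, at 13.9 with 8 of 10 spots past the limit. On that array A_54_P1980 read 109.5, so the probes of 1 miRNA differed in brightness on the array where both were measured. Since A_54_P1979 passed on no pair of replicates, it did not enter the level of miR-689.

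**Figure D1:**
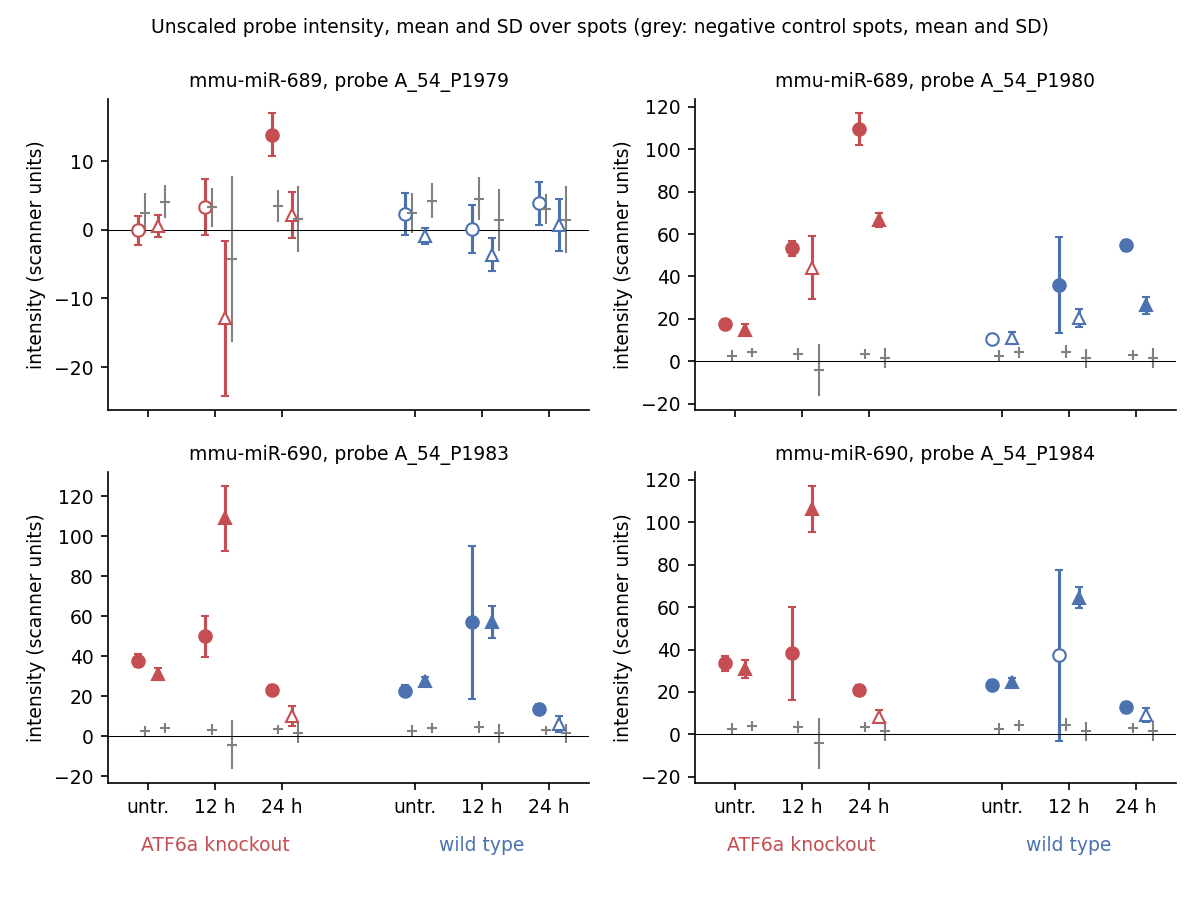
Unscaled intensity (scanner units) of the 4 probes on each array, as mean and SD over the spots of a probe, with circles for replicate 1 and triangles for replicate 2, and open symbols where the probe was not well above background; grey marks give the mean and SD of negative control spots. A_54_P1980 is highest in 24 h knockout cells (109.5 and 66.7), A_54_P1979 is well above background on 1 array, and both miR-690 probes are highest on knockout 12 h replicate 2 (109 and 106).

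For the comparisons, the 75th percentile of an array over the 87 probes above served as its divisor, a floor was set and log2 taken, so levels are log2 units relative to that percentile. On this scale miR-689 was at -5.02 and -4.99 in untreated knockout cells, at -3.17 and -3.69 at 12 h and at -2.14 on both 24 h arrays. In wild type cells it lay at the floor of -5.02 on both untreated arrays, at -3.97 and -4.05 at 12 h and at -2.80 and -2.74 at 24 h. Within each genotype the 3 conditions did not overlap, which includes the 12 to 24 h direction behind the choice of the pair. The shares of all miRNAs so separated are given below for each comparison of 2 conditions.

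In knockout cells the mean of both tunicamycin times was -2.79, against -5.00 in untreated cells, a rise of 2.21 ± 0.13 log2 units or 4.64-fold (limma, adjusted p = 5.19e-05, n = 4 and 2 arrays). It was the third largest rise of the 175 tested miRNAs, of which 16.6% passed in either direction and 3.43% as higher. In wild type cells the mean was -3.39 with tunicamycin and -5.02 in untreated cells, a rise of 1.63 ± 0.13 (limma, adjusted p = 9.57e-05), where 45.1% of miRNAs passed and 6.86% as higher. Untreated wild type cells were not well above background, so the floor stood for their level. After tunicamycin miR-689 was 3.09-fold above that floor. The treated mean includes wild type 12 h replicate 2, which was not well above background either. The knockout treated mean likewise includes knockout 12 h replicate 2, which was not well above background. All treated arrays lay above all untreated ones in each genotype, as they did for 8.57% of miRNAs in knockout and 14.3% in wild type cells. Values at the floor show no spread between replicates, which lowers the standard errors and p-values of miR-689. In total RNA, fewer cells carrying an RNA cannot be told apart from less of it per cell. Leaving out any 1 array kept both rises past the threshold. The wild type rise did not pass when arrays were scaled on all probes (1.46), with quantile normalization (1.25), without scaling (0.94), with normexp background correction (0.66), with the scanner software's summed signal (0.55) or in the deposited table (0.65). The knockout rise did not pass when scaled on all probes (1.47), with quantile normalization (1.66) or in the deposited table (0.55), and the summed signal gave -0.33. In that last setting a floor stood in for knockout 12 h replicate 2, where miR-689 was not detected.

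The single times are given as a description, because they share arrays with the 24 h against 12 h contrast behind the choice of these miRNAs. At 12 h miR-689 stood 1.57 above untreated in knockout cells and 1.00 above in wild type cells. The wild type value was 2.00-fold above the floor. In each genotype 1 of 2 arrays at 12 h was well above background, replicate 1. Such separation upward from untreated held for 13.7% of miRNAs in knockout and 18.9% in wild type cells. At 24 h it stood 2.86 above untreated in knockout cells and 2.25 above in wild type cells, where 21.1% and 19.4% of miRNAs were separated upward. The wild type value was 4.76-fold above the floor. These sizes depended on the processing. At 12 h they were 0.74 and 0.63 in knockout and wild type cells when scaled on all probes, 0.72 and 0.30 with normexp, and -1.22 and 0.69 with the summed signal, which turned the knockout value. In that setting a floor stood in for knockout 12 h replicate 2, where the software did not detect miR-689. The deposited table leaves that array out and gave 0.79 in knockout and 1.12 in wild type cells. At 24 h they were 2.32 and 1.19 without scaling, 1.41 and 1.01 with normexp, 0.56 and 0.42 with the summed signal and 0.32 and 0.18 in the deposited table.

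miR-689 also read higher in knockout than in wild type cells under tunicamycin, by a margin whose call depended on the processing. At 24 h it was at -2.14 on both knockout arrays and at -2.80 and -2.74 on the wild type arrays, a difference of 0.62 ± 0.15 or 1.54-fold (limma, adjusted p = 0.0411), where 9.71% of miRNAs passed and 4.57% as higher. The groups did not overlap, as was so for 17.7% of miRNAs in this direction. Within run 3 the difference was 0.65 and within run 4 it was 0.59. Of 16 alternatives, 1 left out run 4 and gives no test. The call held with the median of probes, the groups compared alone and the replicate block, which returned the same 0.62. It was lost under 11, and the sign turned under 1 more, the summed signal (-0.079). It passed in 2 of 12 fits that left out 1 array, those without a knockout 12 h array (limma, adjusted p = 0.000567 in each), where the widest replicate gap of miR-689 is gone and the standard error is 0.0491. Without wild type 12 h replicate 1 the 0.62 did not pass (limma, adjusted p = 0.0651). At 12 h the difference of 0.58 ± 0.15 missed the threshold (limma, adjusted p = 0.0544, 95% interval 0.23 to 0.93), where 7.43% of miRNAs passed. It was 0.80 in run 3 and 0.36 in run 4, where neither 12 h array was well above background. The 12 h difference was above 0 in 15 of 16 alternatives, but its size varied. It was 0.11 with normexp, where the median of all miRNAs was -0.12. In the deposited table it was 0.00019, and with the summed signal -2.13. Of 12 fits that left out 1 array it passed in the same 2, at 0.32 without knockout 12 h replicate 1 and 0.84 without replicate 2 (limma, adjusted p = 0.0161 and 0.000642). Untreated cells of the 2 genotypes were both at or beside the floor, with a difference of 0.014 ± 0.15 (limma, adjusted p = 1), where 28% of miRNAs passed.

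Whether the tunicamycin response of miR-689 depended on genotype was tested directly. The response was larger in knockout than in wild type cells by 0.59 ± 0.18, which missed the threshold (limma, adjusted p = 0.0811, 95% interval 0.16 to 1.02). Of all tested miRNAs 13.1% passed this comparison, 10.9% as a higher response in knockout cells. With scanning run as a block 0.59 passed (limma, adjusted p = 0.0498), as did 0.46 and 0.72 without knockout 12 h replicate 1 or 2 (limma, adjusted p = 0.00498 and 0.000687), the only 2 of 12 such fits to pass, whereas the summed signal turned it to -0.88 and the deposited table to -0.099. In the summed signal a floor stood in for knockout 12 h replicate 2, where miR-689 was not detected. Scaled on all probes the response difference was 0.01 (limma, adjusted p = 0.999). Relative to the median of all miRNAs that was 0.38, against 0.39 in the main setting. With the floor halved or left out it was 0.50 (limma, adjusted p = 0.27 and 0.477). Both wild type untreated arrays lay at the floor, so the wild type response is a rise from that floor and the difference depends on it.

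**Figure D2:**
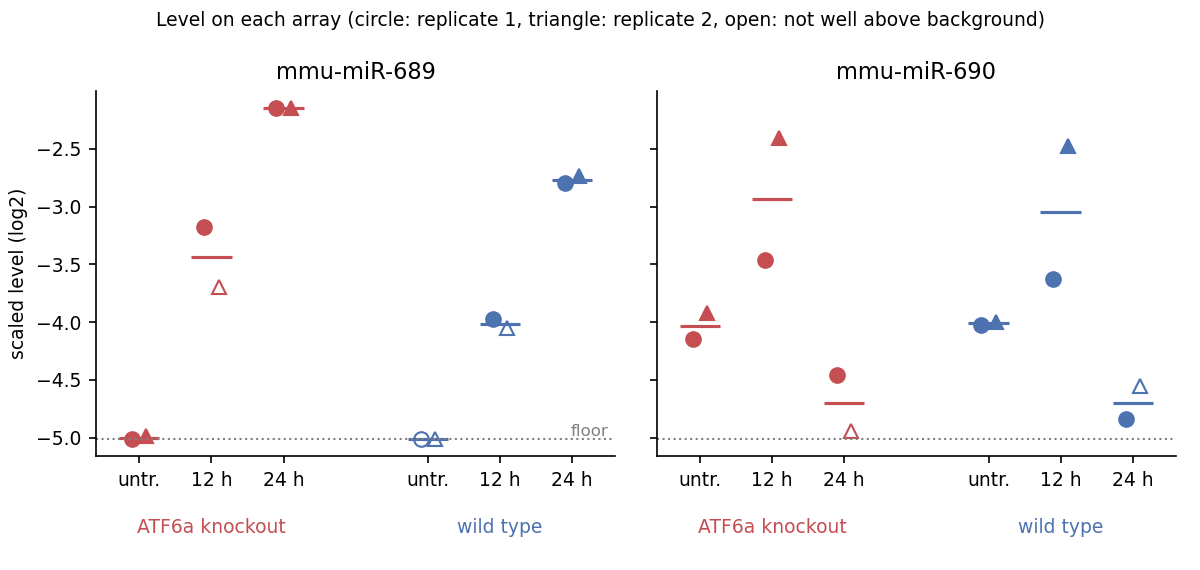
Scaled level (log2) of miR-689 and miR-690 on each array by genotype and condition, with circles for replicate 1, triangles for replicate 2, bars for group means and open symbols where no used probe was well above background. miR-689 climbs to -2.14 in knockout and -2.77 in wild type cells at 24 h, while miR-690 is highest at 12 h (-2.93 and -3.05) with replicates far apart.

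The miR-690 signal was well above background in untreated cells, read higher at 12 h of tunicamycin and lower at 24 h, in both genotypes. Probe A_54_P1983 averaged 37.7 and 31.1 intensity units in untreated knockout cells, 49.9 and 109 at 12 h and 23.2 and 10.1 at 24 h. The wild type averages were 22.7 and 27.6 untreated, 56.9 and 57.1 at 12 h and 13.8 and 6.08 at 24 h. Both 24 h arrays of each genotype thus read below all untreated and 12 h arrays of that genotype before any scaling. The replicate 2 readings at 24 h were not well above background.

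Probe A_54_P1984 followed the same course. It averaged 33.5 and 30.7 in untreated knockout cells, 38.3 and 106 at 12 h and 21.1 and 8.33 at 24 h. In wild type the averages were 23.1 and 24.8 untreated, 37.2 and 64.4 at 12 h and 12.8 and 9.29 at 24 h. The probes differed by a median of 0.15 log2 units on the same array after scaling, and by less than 0.25 on 9 of 12 arrays. The widest gaps, both 0.61, fell on wild type 12 h replicate 1 and wild type 24 h replicate 2. On the first of these, the spots of A_54_P1984 ran between -5.12 and 99.4, and 5 of 10 were well above background. Neither probe was well above background on knockout 24 h replicate 2 or wild type 24 h replicate 2, both from run 4.

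After scaling, miR-690 was at -4.15 and -3.92 in untreated knockout cells, at -3.46 and -2.41 at 12 h and at -4.45 and -4.94 at 24 h. In wild type cells it was at -4.02 and -4.00 untreated, at -3.62 and -2.47 at 12 h and at -4.84 and -4.55 at 24 h. The 12 h replicates lay far apart in both genotypes, with an SD of 0.74 in knockout and 0.81 in wild type cells, and in each case the run 4 array was the higher. Even so, in each genotype both 12 h arrays exceeded both untreated ones, and both 24 h arrays read below them. On the run 4 arrays at 24 h, miR-690 was not well above background. The lowest probe that was lay at -3.10 in knockout and -2.87 in wild type cells, above the untreated levels of miR-690. Its place below untreated was thus measured on the replicate 1 array alone. Upward separation from untreated at 12 h held for 13.7% of miRNAs in knockout and 18.9% in wild type cells, and downward separation at 24 h for 36.6% of miRNAs in knockout and 51.4% in wild type cells. As a description, miR-690 stood 1.1 above untreated at 12 h in knockout cells and 0.96 above in wild type cells. Single arrays decided these sizes: without run 4 they were 0.57 and 0.39, and over all fits that left out 1 array they ran between 0.57 and 1.63 in knockout and between 0.39 and 1.54 in wild type cells, the 1.54 being without wild type 12 h replicate 1. Scaled on all probes they were -0.29 and 0.29, where the median of all miRNAs moved by -0.68 and -0.29, and relative to that setting's median they were 0.47 and 0.85. At 24 h it stood at -0.66 and -0.68 relative to untreated in knockout and wild type cells. With normexp these were 0.16 and 0.25, where the median of all miRNAs moved by 0.30 and 0.47. Relative to that setting's median they were -0.14 and -0.0064. Without run 4 the knockout value was -0.42.

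Averaged over both times, no tunicamycin response of miR-690 passed the threshold. The mean was -3.82 with tunicamycin and -4.03 in untreated knockout cells, a difference of 0.22 ± 0.39 (limma, adjusted p = 0.774, 95% interval -0.69 to 1.12), and 0.077 without run 4. In wild type cells it was -3.87 with tunicamycin and -4.01 in untreated cells, a difference of 0.14 ± 0.39 (limma, adjusted p = 0.818, 95% interval -0.77 to 1.05), with -0.22 without run 4 and 0.43 without wild type 12 h replicate 1. This average sets the higher 12 h values against the lower 24 h values, and the treated arrays overlapped the untreated ones in both genotypes.

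Genotype differences of miR-690 did not pass at any time, and their intervals spanned about 1 log2 unit on either side. At 24 h the difference was -0.0017 ± 0.44 (limma, adjusted p = 1, 95% interval -1.05 to 1.05), with 0.38 in run 3 and -0.39 in run 4. At 12 h it was 0.12 ± 0.44 (limma, adjusted p = 1), with 0.17 in run 3 and 0.066 in run 4, and it turned to -0.46 without wild type 12 h replicate 1. In untreated cells it was -0.022 ± 0.44 (limma, adjusted p = 1). The tunicamycin responses of the genotypes differed by 0.079 ± 0.54 (limma, adjusted p = 0.977, 95% interval -1.20 to 1.36), by -0.21 without that array and by 0.30 without run 4.

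The contrast of 24 h with 12 h, by which the pair was chosen, is given without a test. miR-689 stood 1.29 higher at 24 h than at 12 h in knockout cells and 1.25 higher in wild type cells, rank 3 and rank 1 of the 175 tested miRNAs. miR-690 stood at -1.76 in knockout and -1.65 in wild type cells, rank 1 and rank 2 from the bottom. For both, the 24 h arrays did not overlap the 12 h arrays in either genotype. Such separation held upward for 16% of miRNAs in knockout and 30.3% in wild type cells, and downward for 4% and 11.4%. Over all tested miRNAs the median of this contrast was 0.016 in knockout and 0.00 in wild type cells.

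Within each scanning run the directions were the same. For miR-689 the 24 h minus 12 h difference was 1.03 in run 3 and 1.55 in run 4 in knockout cells, and 1.18 and 1.32 in wild type cells. For miR-690 it was -0.995 in run 3 and -2.53 in run 4 in knockout cells, and -1.21 and -2.08 in wild type cells. The drop of miR-690 was thus wider in run 4, where its 24 h signals were not well above background. For miR-689 the 12 h signals of run 4 were not well above background. Without wild type 12 h replicate 1 the wild type values were 1.29 for miR-689 and -2.22 for miR-690.

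**Figure D3:**
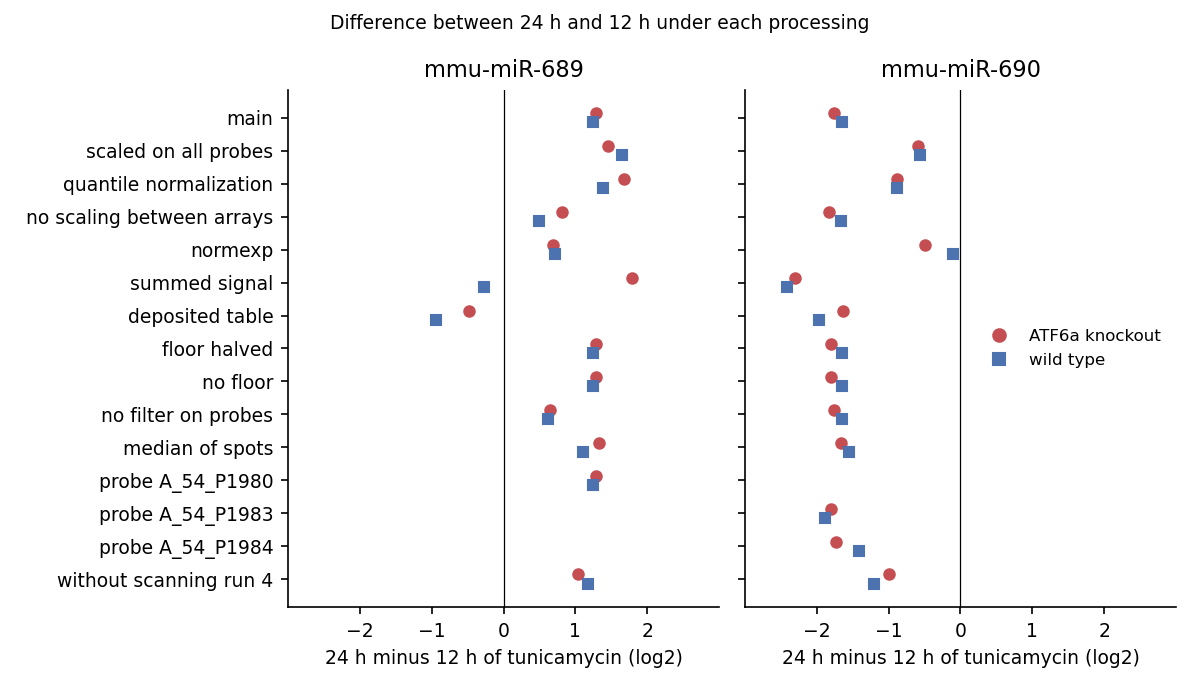
Difference between 24 h and 12 h of tunicamycin (log2) for each miRNA under the main and 14 alternative settings where it could be computed, with circles for knockout and squares for wild type cells. miR-690 is below 0 throughout, at -0.10 or lower, and miR-689 is above 0 except with the summed signal in wild type cells (-0.27) and in the deposited table (-0.48 and -0.94).

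The difference of miR-690, on whose direction the choice of the pair rests, was below 0 in all 17 alternatives other than single arrays left out, in both genotypes. For either miRNA some of these returned the main value and add no check: the median of probes, and the fits on only the groups compared or with a block. With arrays scaled on all probes miR-690 stood at -0.59 in knockout and -0.57 in wild type cells, where the median of all miRNAs itself moved by 0.19 and 0.52. Relative to that median the values were -0.80 and -1.09. miR-689 was above 0 in 15 of 16 such alternatives in knockout cells and in 14 of 16 in wild type cells. The exceptions used the scanner software's own summary of a miRNA.

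That summary, the summed gene signal, treated the pair differently. It was compared with the sum of the signals that the same software gives for the probes of a miRNA. For miR-690 the ratio was 1.00 on all 10 arrays where the software called it detected. For miR-689 the ratio in knockout cells was 8.95 and 6.10 untreated, 3.60 on the 1 detected 12 h array, and 1.00 and 2.62 at 24 h. The wild type ratios were 8.01 and 8.78 untreated, 6.13 and 11.8 at 12 h and 2.69 and 2.71 at 24 h. The ratio was 1.00 on the single array where both probes of miR-689 were well above background, and between 2.62 and 11.8 on the others, lower at 24 h than at the earlier times.

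The same split held across the array. Where all probes of a detected miRNA were well above background, the ratio was within 1% of 1 in 1019 of 1019 cases over the 12 arrays. Where some probes were, it was so in 243 of 653 cases (37.2%), and where none was, in 24 of 362 (6.63%). The deposited table holds log2 of this summed signal. In it miR-689 stood at 6.65 and 6.01 in untreated knockout cells, at 7.12 on the 1 detected array at 12 h and at 6.38 and 6.90 at 24 h. The wild type values were 6.08 and 5.91 untreated, 7.25 and 6.98 at 12 h and 6.75 and 5.61 at 24 h. In that table miR-689 thus averaged lower at 24 h than at 12 h in both genotypes, while the intensity of A_54_P1980 was higher at 24 h than at 12 h within each run and genotype.

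**Figure D4:**
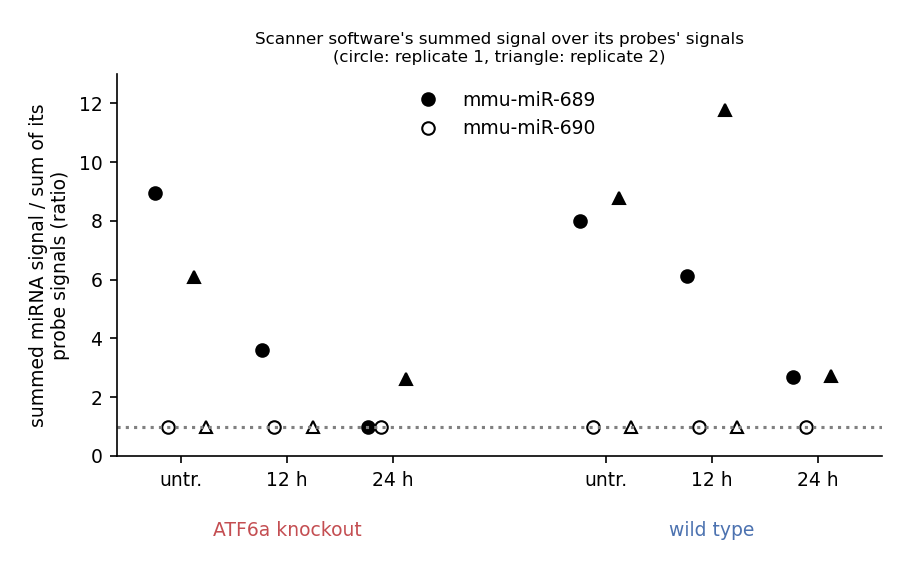
Ratio of the scanner software's summed signal to the sum of its probe signals for miR-689 (filled) and miR-690 (open) on each array where the miRNA was detected, with circles for replicate 1 and triangles for replicate 2; the dotted line marks 1. miR-690 sits at 1.00 on its 10 arrays, and miR-689 reaches 11.8 and is at 1.00 only on knockout 24 h replicate 1.

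The 2 profiles were weakly opposed, with a Pearson r of -0.36 over the 12 arrays. The tested miRNA whose profile was most like that of miR-689 was miR-1224 (r = 0.97), a GC-rich entry, followed by miR-872 (0.82) and let-7b (0.76). In knockout cells miR-1224 averaged -3.25 untreated, -0.98 at 12 h and 0.83 at 24 h, and in wild type cells -3.03, -1.14 and -0.71. Most like miR-690 were miR-423-5p (r = 0.80), miR-466a-3p (0.69) and miR-574-5p (0.67), all of which averaged higher at 12 h than at 24 h in both genotypes. In knockout cells miR-574-5p averaged -2.56 untreated, -0.80 at 12 h and -2.17 at 24 h, and in wild type cells -2.47, -1.12 and -2.06. Some of these profiles lay near the floor of -5.02. Group means of miR-872 ran between -5.02 and -4.15, and miR-423-5p and miR-466a-3p averaged -4.93 and -5.02 in untreated knockout cells. These correlations are over arrays of 6 groups that share slides and runs, and are descriptions.

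Of the other tested entries suspected of being pieces of abundant RNAs, neither passed the tunicamycin test in either genotype. Of 11 listed entries, 8 were on the array and 4 were tested, namely the pair, miR-709 and miR-720. These 4 were also the only tested entries among the 42 on the array numbered miR-681 to miR-720. Of the 4, 1 rose with tunicamycin and none fell, in each genotype, against 3.43% of all tested miRNAs called higher in knockout and 6.86% in wild type cells, and the 1 was miR-689 itself. miR-709 differed between tunicamycin and untreated by 0.046 ± 0.37 in knockout and -0.11 ± 0.37 in wild type cells, and miR-720 by 0.25 ± 0.18 and 0.031 ± 0.18, none past the threshold (limma, adjusted p between 0.422 and 0.993). The median of the 4 was 0.23 in knockout and 0.085 in wild type cells, against -0.033 and -0.20 over all tested miRNAs. Without the pair, the median of the remaining 2 was 0.15 in knockout and -0.040 in wild type cells. Between 12 and 24 h miR-709 stood at -0.39 and -0.44, and miR-720 at -0.19 and -0.14, in knockout and wild type cells.

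GC-rich entries that are often bright on arrays also read higher with tunicamycin in knockout cells, but did not all follow miR-689 between 12 and 24 h. Of 12 on the array, 3 were tested. With tunicamycin limma called 3 higher in knockout cells, counting miR-135a*, and 1 in wild type cells, where 3.43% and 6.86% of all tested miRNAs were called higher. miR-1224 rose by 3.17 ± 0.22 in knockout and 2.11 ± 0.22 in wild type cells (limma, adjusted p = 6.74e-05 and 0.000315). miR-1895 rose by 1.06 ± 0.25 in knockout cells (limma, adjusted p = 0.0302) and differed by 0.44 ± 0.25 in wild type cells (limma, adjusted p = 0.207). miR-135a* stood 1.29 ± 0.22 higher in knockout and 0.10 ± 0.22 higher in wild type cells, given as a description. Its knockout rise rested mainly on 24 h, at 2.18 above untreated, against 0.39 at 12 h. The level was the same in untreated cells of both genotypes and in wild type cells at 12 h, as for values at the floor. Such values show no spread between replicates, which lowers its standard error. A miRNA was tested if a probe passed on both arrays of 1 or more groups, and miR-135a* was highest in knockout cells at 24 h. Its call in knockout cells may thus follow from that filter and is not used as support. Between 12 and 24 h miR-1895 stood lower at 24 h, at -0.93 in knockout and -0.89 in wild type cells. miR-1224 stood higher by 1.81 and 0.43, and miR-135a* by 1.79 and 0.21, in knockout and wild type cells. With tunicamycin against untreated, the list's median was 1.29 in knockout and 0.44 in wild type cells, the knockout median being the value of miR-135a*. What the list shares with the miR-689 signal was not tested.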

How the data were processed

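Total RNA (100 ng per array) was labelled with Cy3 and hybridised to 12 single-colour Agilent mouse miRNA arrays, per the labels' protocols. The deposited spot intensities come from Agilent Feature Extraction 10.7.1.1, as the submitters' processing notes name it. Per the file headers, the software subtracted background, and the authors' files carry no scaling between arrays. The values of the deposited series table are log2 of the software's summed signal, within 1.54e-06.

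Control and outlier spots were left out and the spots of a probe averaged. As divisor, each array's 75th percentile was taken over 87 probes well above background on all arrays (more than 0.5 of spots passing the scanner flag). Scaled signals were floored at 0.0309 (log2 -5.02, the arrays' median minimum among probes that passed) and log2-transformed. A miRNA was the mean over used probes, those passing on both replicates of 1 or more groups, which gave 306 probes of 175 miRNAs. The 6 group means were fitted in R 4.3.3 with limma 3.58.1 (6 residual and 1.16 prior degrees of freedom), two-sided, with Benjamini-Hochberg adjustment over all 175 within each comparison and a threshold of 0.05. The fit was tested on simulated data.

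Tested contrasts were the mean of both tunicamycin times against untreated, knockout against wild type at each time, and the difference of responses. The named miRNAs were the pair, the 3 tested miRNAs with the highest Pearson r for each, and members of lists of suspected fragments, of neighbouring numbers and of GC-rich entries where a result turned on them. The pair, the lists and the markers were chosen with earlier results of these data known. Each 95% interval is the limma interval, and the number of arrays limits precision. Alternatives changed scaling, background correction, signal column, floor, filters, probe and spot summaries, the fit and the arrays. normexp used the median spot signal with an offset of 50. Sequences and promoter windows came from RefSeq tables, matched by miRNA name.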

Additional observations from a re-analysis of the deposited data

Results flagged for a closer look

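The miR-689 probe left out of the level, A_54_P1979, read 13.9 intensity units on knockout 24 h replicate 1, where 8 of 10 spots were well above background. On the 4 untreated arrays the same probe lay between -0.90 and 2.30. On knockout 24 h replicate 2 it read 2.14 and was not well above background, so the signal was seen on 1 of 2 replicates. The same array gave the highest reading of the other miR-689 probe, 109.5.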

How the results depend on the processing

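All values are log2 differences in the order of the report, knockout minus wild type or tunicamycin minus untreated. Settings in parentheses are scaling on all probes, quantile normalization, the software's summed signal, the deposited table and those named in full. Where a miRNA was not detected, the summed signal setting used a floor, and the deposited table holds no value. This concerns miR-689 on knockout 12 h replicate 2, and miR-690 on the run 4 arrays at 24 h. For miR-689 the tunicamycin response in knockout and wild type cells was 1.47 and 1.46 (all probes), 1.66 and 1.25 (quantile), -0.33 and 0.55 (summed) and 0.55 and 0.65 (deposited), none past the threshold. In wild type cells it also did not pass without scaling (0.94) or with normexp (0.66). The miR-689 genotype difference at 24 h did not pass at 0.18 (all probes), 0.63 (quantile), 1.17 (no scaling), 0.092 (normexp), -0.079 (summed), 0.46 (deposited), 0.31 (no filter), 0.65 (median of spots) or 0.62 (floor halved, no floor, A_54_P1980 alone, run as block). At 12 h it was -2.13 (summed), 0.11 (normexp), 0.00019 (deposited) and 0.80 (without run 4, no test). In untreated cells it was -0.30 (normexp), -0.23 (summed) and 0.00 (median of spots). The response difference of miR-689 was -0.88 (summed), -0.099 (deposited), 0.01 (all probes) and 0.50 (floor halved, no floor). It passed at 0.59 (run as block), and was 0.71 (without run 4, no test). Without run 4 each treated group is 1 array and the spread comes from the untreated arrays alone, at or beside the floor for miR-689, so no call is drawn from that setting. Its 24 h minus 12 h difference in wild type cells was 1.65 (all probes), 1.38 (quantile), 0.49 (no scaling), 0.71 (normexp), -0.27 (summed), -0.94 (deposited), 0.62 (no filter), 1.11 (median of spots) and 1.18 (without run 4). In knockout cells it was 1.68 (quantile), 0.82 (no scaling), 0.69 (normexp), 1.79 (summed), -0.48 (deposited), 0.64 (no filter) and 1.03 (without run 4). With no filter, A_54_P1979 at the floor enters the mean, which pulls each difference toward 0 by construction.

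No miR-690 call changed, and these values changed sign. The response was -0.59 (all probes), -0.22 (quantile) and -0.36 (summed) in knockout cells, and -0.51 (summed) and -0.22 (without run 4) in wild type cells. At 12 h against untreated it was -0.29 (all probes) in knockout cells. At 24 h against untreated it was 0.16 and 0.25 (normexp) in knockout and wild type cells. Relative to the normexp median of all miRNAs these were -0.14 and -0.0064. The genotype difference in untreated cells was 0.42 (all probes), 0.29 (quantile), 0.44 (no scaling) and 0.44 (deposited). At 12 h it was -0.16 (all probes) and -0.017 (summed). At 24 h it was 0.034 (quantile), 0.20 (no scaling), 0.09 (summed), 0.72 (deposited), 0.19 (A_54_P1983 alone), 0.033 (median of spots) and 0.38 (without run 4). The response difference was -0.59 (all probes), -0.26 (quantile), -0.15 (no scaling) and -0.00081 (A_54_P1984 alone). The 24 h minus 12 h difference was -0.59 and -0.57 (all probes), -0.88 and -0.89 (quantile), and -0.49 and -0.10 (normexp) in knockout and wild type cells, -1.0 (without run 4) in knockout and -2.41 (summed) in wild type cells. Except where stated, the cause was not tested.

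With 1 array left out in turn, where a lone array is assumed to vary like the others, the miR-689 response ran between 2.08 and 2.34 in knockout and 1.61 and 1.65 in wild type cells. Its genotype difference ran between 0.59 and 0.65 at 24 h, 0.32 and 0.84 at 12 h and 0 and 0.028 untreated, its response difference between 0.46 and 0.72, and its 24 h minus 12 h difference between 1.03 and 1.55 in knockout and 1.21 and 1.29 in wild type cells. For miR-690 the response ran between -0.045 and 0.48 in knockout and -0.15 and 0.43 in wild type cells. Its genotype difference ran between -0.25 and 0.24 at 24 h, -0.46 and 0.69 at 12 h and -0.14 and 0.093 untreated, its response difference between -0.21 and 0.37, and its 24 h minus 12 h difference between -2.29 and -1.24 in knockout and -2.22 and -1.07 in wild type cells.

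Replicate numbers did not pair the samples by the labels. Deviations of same-numbered arrays correlated at 0.74 between the untreated groups, 0.82 to 0.94 among treated groups and -0.66 to -0.45 between untreated and treated groups. The replicate block left each difference as it was (miR-689 response 2.21 and 1.63, limma, adjusted p = 0.000226 and 0.00031) and changed no call of either miRNA; over all miRNAs it called 30 in place of 29 and 81 in place of 79.

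Over the alternatives other than arrays or run 4 left out, those counted in miRNAs fitted between 57 and 650 of them. There limma called 1 to 37 miRNAs for tunicamycin in knockout cells (main 29) and 0 to 92 in wild type cells (79). The range was 0 to 95 (49) between untreated genotypes, 0 to 19 (13) at 12 h, 0 to 21 (17) at 24 h and 0 to 37 (23) for the response difference. With each probe fitted alone, 51 of 306 probes were called for tunicamycin in knockout and 128 in wild type cells. Where 0 were called, 0 to 20 had an unadjusted p under 0.05. Restricting to probes well above background on all arrays left neither miRNA. Leaving out run 4 was chosen after seeing the data. Background limits every 24 h value of miR-690 in run 4, the untreated wild type values of miR-689 and its 12 h values in run 4. The untreated knockout values of miR-689 were well above background but lay at or beside the floor.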
